A study of Arabidopsis thaliana with 6 samples.

Results

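The mitochondrial genome of a plant encodes a small core of the respiratory chain, and its transcripts were followed here in sprayed leaves. Members were chosen by their symbol in the platform annotation, taking every probe set with 1 gene named in the lower-case style of mitochondrial genes (nad, cox, cob, ccb or atp followed by a number, matR, or orf followed by a number or letter). The rule used no measured value, although the members were chosen with earlier results of these data known. It found 23 probe sets for 16 genes among the 22810 probe sets of the array. A probe set is the group of short probes that reports on 1 transcript. Leaves were taken from unmodified Col-0 plants of Arabidopsis thaliana at 28 days of age, which had been raised aseptically in jars of 0.5 L. Spraying with Tween 20 at 1.6 mM, a non-ionic detergent, gave 2 arrays at 1 h (experiments IA and IB, biological repetitions) and 1 array at 2.5 h (experiment II). Each of these 3 arrays had a partner from plants sprayed with distilled water in the same experiment. Groups follow the sample titles, because the treatment text names water for the Tween samples too and gives 2.5 h for IA. Each array carried RNA pooled from 3 extracts, so the spread between extracts is not seen and p-values measure the spread between pairs of arrays.

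Plant mitochondria keep genes for subunits of the respiratory complexes that sit in the inner membrane, for proteins that attach haem to cytochrome c, for a maturase of group II introns and for part of their translation machinery, while most mitochondrial proteins are encoded in the nucleus and imported. Their transcripts are edited from C to U at many sites, and nad1, nad2 and nad5 are joined from separate precursors by trans-splicing. Stable mitochondrial mRNAs mostly lack a poly(A) tail, and a tail added to them marks them for decay. Which primer was used to label the RNA was not stated. In pooled leaves, fewer cells of a type and less RNA per cell cannot be told apart.

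The members fell into roles as follows. Complex I, which oxidises NADH, was represented by 8 nad genes with 15 probe sets, of which 7 belonged to nad1 and 2 to nad5. Complex IV, which reduces oxygen, was represented by cox1 and cox2, its catalytic subunits. Cytochrome c maturation had 4 genes, ccb206 (ccmB), ccb382 (ccmFN1), ccb203 (ccmFN2) and ccb452 (ccmFC). The remaining members were the maturase matR and orfX (mttB), which encodes a relative of the bacterial translocase subunit TatC. The 16 symbols all occurred, as a symbol or an older name, among the mitochondrial genes of the RefSeq annotation of TAIR10.1, although 0 of the numeric gene identifiers did. There were 0 members for cob of complex III and 0 for the ATP synthase. A further 6 probe sets paired a mitochondrial gene with a nuclear one in the annotation, and they were not members. The nuclear genome of Col-0 carries a large insertion of mitochondrial DNA, and array design marks 5 members (matR, orfX, ccb452, nad6 and 1 probe set of nad5) as having probes that match more than 1 transcript, so those signals may add up several copies.

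Signals are MAS5 intensities in arbitrary units, which the authors scaled to 1 common mean, so only differences of a probe set between arrays can be read and levels of different probe sets cannot be compared. Array medians ranged from 36.5 to 40.45 units. Testing required a signal at or above the array's 40th percentile (20.6 to 23.9 units) on at least 2 arrays. This left 12 of the 23 members, for 10 genes, against 63.1% of all probe sets. Of the 12, 7 were above that percentile on all 6 arrays. The other 11 members were nad2, nad6, nad7, cox2, ccb203, matR, 1 probe set of nad5 and 4 of nad1, and their signals ran from 1.2 units for nad2 to 25.6 units for nad6. Of 10 mesophyll markers listed for this work, 2 matched a probe set with 1 gene in the platform annotation. They were the Rubisco activase gene RCA and the Calvin cycle enzyme SBPASE, with signals of 1905 to 4176.4 units. The annotation named no gene for 8730 probe sets, so a marker without a match is not shown to be absent from the array. Of 4 guard cell, 5 root and 2 phloem markers, such probe sets were matched for 1, 1 and 0, and the root hair gene EXPA7 was too dim to be tested.

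No tested mitochondrial probe set changed detectably with the detergent, and the dim members were not tested. Over the 3 experiments 0 of the 12 tested members passed limma's paired test after Benjamini-Hochberg adjustment, where 1.12% of all 14345 tested probe sets did. A count of 0 among 12 is near that share. At an unadjusted p under 0.05 the count of members was again 0, where 15.7% of all tested probe sets lay. The estimates, Tween over water on the log2 scale, ran from -0.37 for nad5 to 0.25 for nad1, and 6 of 12 were above 0. Their median was -0.0021, beside -0.042 over all tested probe sets, and it was 0.074 without IA and -0.078 without IB. The 95% intervals of the 12 estimates lay between -0.91 and 0.70, so a 2-fold difference fell outside each of them with all 3 experiments in the fit. This did not hold for every member without IA or without II: without IA the interval of nad5 was -1.34 to 0.16 and that of nad4L reached 1.01, and without II the interval of nad5 was -1.12 to 0.46. The intervals over 3 experiments rest on 2 residual degrees of freedom, to which limma's prior added 5.03.

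**Figure D1:**
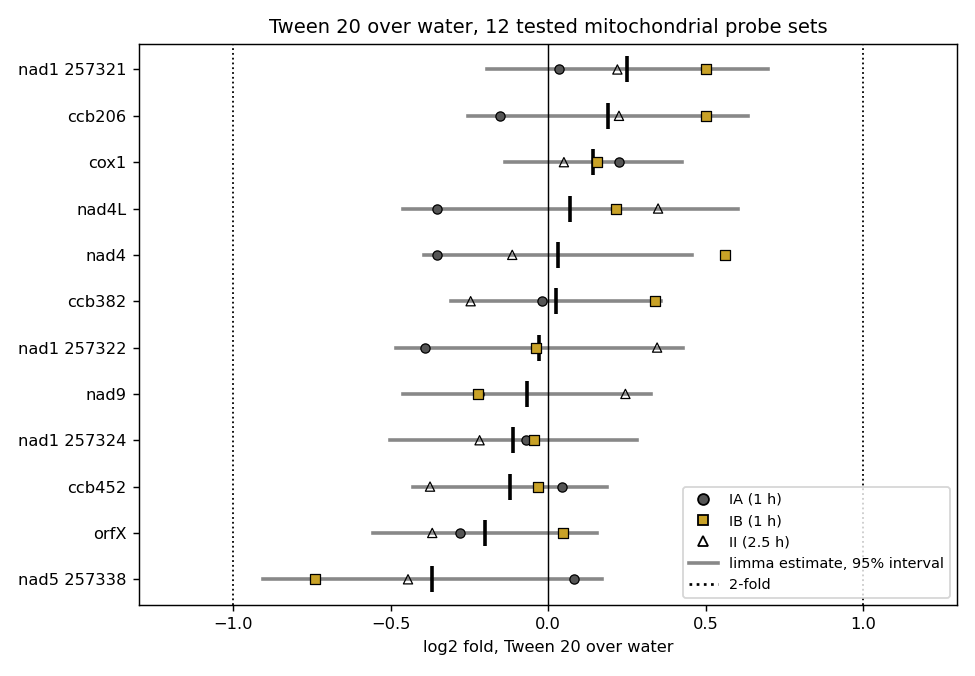
Log2 fold of Tween 20 over water for the 12 tested mitochondrial probe sets, with 1 symbol per experiment, the limma estimate over the 3 experiments (tick) and its 95% interval (bar). The dotted lines mark a 2-fold difference, which no interval reaches with all 3 experiments fitted, although that of nad5 passes it without IA (-1.34) or without II (-1.12). The estimates run from -0.37 to 0.25.

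Among the complex I genes, nad5 lay furthest from 0 with all 3 experiments fitted, whereas without IB nad4 did (-0.23). Probe set 257338_s_at of nad5 gave 37.7, 7.6 and 21.3 units with Tween 20 in IA, IB and II, against 35.6, 12.7 and 29.0 units with water. Its Tween signal was slightly above water in IA and below it in IB and II, and both IB signals were dim. The estimate was -0.37 ± 0.23 (SE, n = 3 pairs, limma adjusted p = 0.488), and it was -0.59 without IA and -0.18 without IB. For nad1, which encodes a membrane subunit of complex I, probe set 257321_at gave 25.9, 22.5 and 28.3 units with Tween 20, against 25.3, 15.9 and 24.3 units with water. Tween 20 was above water in every pair, but by 0.03, 0.50 and 0.22 on the log2 scale, and the estimate of 0.25 ± 0.19 (SE) did not pass (limma adjusted p = 0.572).

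The other tested probe sets of nad1 did not repeat that direction. Probe set 257324_at gave 30.1, 19.0 and 27.6 units with Tween 20, against 31.6, 19.6 and 32.1 units with water, so Tween 20 was below water in each pair, with log2 folds of -0.07, -0.04 and -0.22. Probe set 257322_at gave 28.9, 21.8 and 34.7 units with Tween 20, against 37.9, 22.4 and 27.3 units with water. It was lower with Tween 20 in IA and IB and higher in II, with log2 folds of -0.39, -0.04 and 0.35. The 3 probe sets of this 1 gene thus had estimates of 0.25, -0.11 and -0.03, none of which passed.

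The folds of nad4, another membrane subunit of complex I, varied most between pairs among the 12 tested probe sets. It gave 514.9, 72.5 and 282.9 units with Tween 20 in IA, IB and II, against 658.0, 49.1 and 306.2 units with water. Tween 20 was below water in IA and II and above it in IB, with log2 folds of -0.35, 0.56 and -0.11, and the estimate was 0.03 ± 0.18 (SE, limma adjusted p = 0.957). The small membrane subunit gene nad4L gave 27.3, 13.7 and 22.8 units with Tween 20, against 34.9, 11.8 and 17.9 units with water. It was below water in IA and above it in IB and II, and 4 of its 6 signals were under the 40th percentile. The gene nad9, for a subunit of the peripheral arm, gave 42.9, 20.3 and 37.1 units with Tween 20, against 50, 23.7 and 31.3 units with water. Its log2 fold was -0.22 in both IA and IB and 0.25 in II, with an estimate of -0.07 ± 0.17 (SE).

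The catalytic subunit gene cox1 had the smallest standard error of the 12. Its probe set gave 104.0, 32.6 and 79.3 units with Tween 20, against 89.0, 29.3 and 76.6 units with water. Tween 20 was above water in each pair, by 0.22, 0.15 and 0.05, and the estimate of 0.14 ± 0.12 (SE) did not pass (limma adjusted p = 0.614). In all, 2 of 12 tested members were above water in all 3 pairs and 1 was below in all 3, beside 15.2% and 23.6% of all tested probe sets. For cox2, which was too dim to be tested, the 6 signals lay between 14.1 and 21.4 units.

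The tested cytochrome c maturation genes also moved little with the treatment. The ccb206 probe set gave 28.3, 30.3 and 29.1 units with Tween 20, against 31.5, 21.4 and 24.9 units with water, and its estimate was 0.19 ± 0.19 (SE, limma adjusted p = 0.680). The Tween signals of ccb206 lay between 28.3 and 30.3 units and its water signals between 21.4 and 31.5 units, so the groups overlapped, with folds of -0.15, 0.50 and 0.22. The ccb382 probe set gave 169.1, 143.6 and 113.9 units with Tween 20, against 171.6, 113.5 and 135.1 units with water. Its folds were -0.02, 0.34 and -0.25, and its estimate of 0.02 ± 0.14 (SE) was the one nearest to 0. The ccb452 probe set gave 131.1, 41.6 and 117.8 units with Tween 20, against 127.1, 42.5 and 152.8 units with water, with an estimate of -0.12 ± 0.13 (SE, limma adjusted p = 0.716). Both groups of ccb452 had their lowest signal in IB. The translocase gene orfX gave 38.1, 27.6 and 41.6 units with Tween 20, against 46.3, 26.7 and 53.7 units with water, with an estimate of -0.20 ± 0.15 (SE, limma adjusted p = 0.572).

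**Figure D2:**
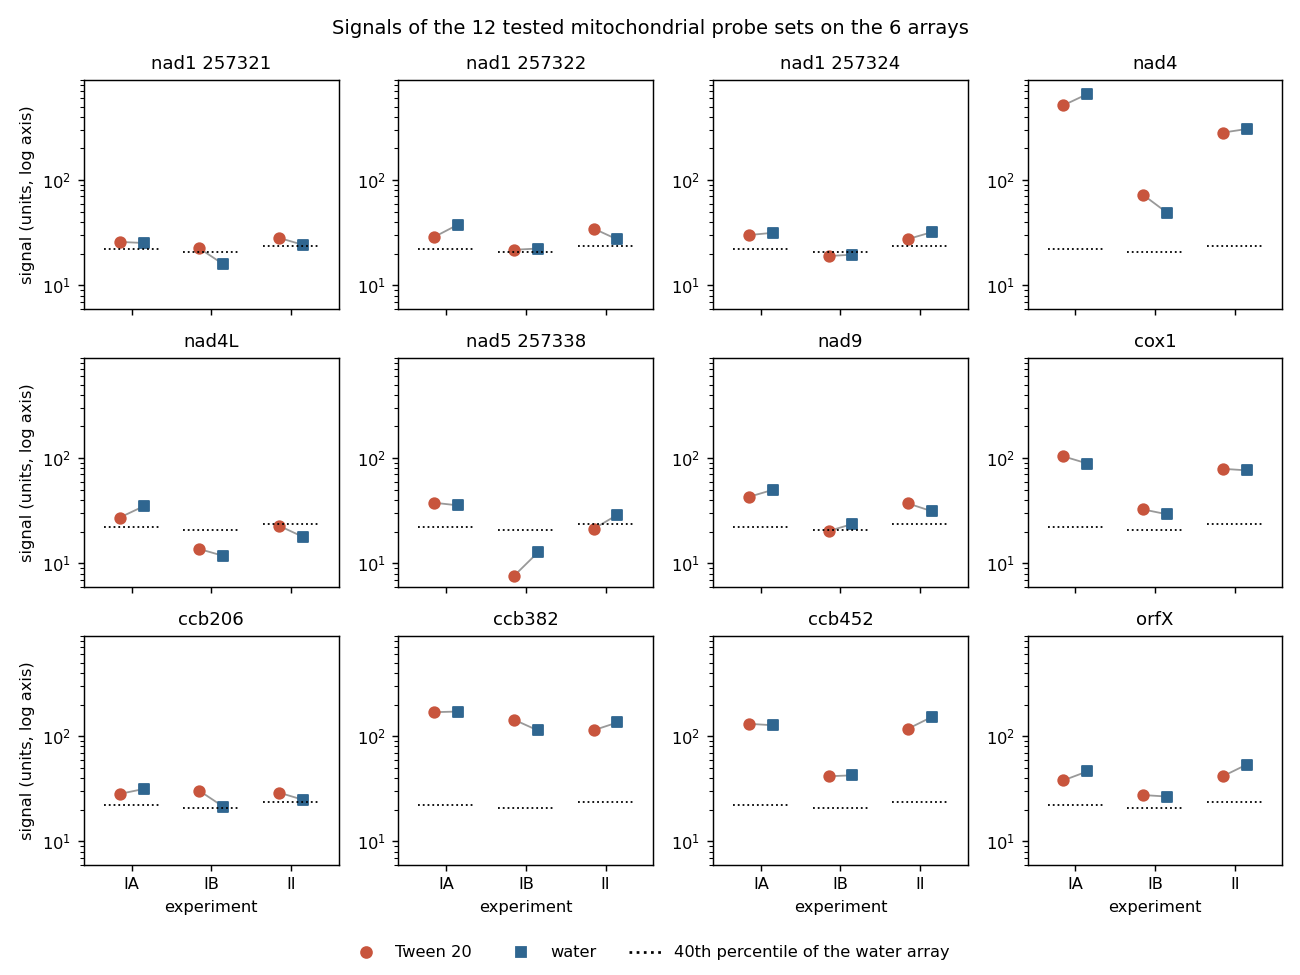
Signals (units, log axis) of the 12 tested mitochondrial probe sets in experiments IA, IB and II, with Tween 20 as circles and water as squares joined by a line, and the 40th percentile of the water array as a dotted line. The Tween and water signals of an experiment lie close together, while nad4, cox1 and ccb452 are lower on both arrays of IB, with nad4 at 72.5 and 49.1 units there.

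By time, the members were equally without calls. At 1 h, 0 of 12 passed limma's test on IA and IB, where 0% of all tested probe sets passed after adjustment and 11.8% lay at an unadjusted p under 0.05, against 0 members. The 1 h mean of the log2 folds was 0.27 ± 0.33 for nad1 probe set 257321_at, 0.19 ± 0.05 for cox1 and -0.33 ± 0.58 for nad5 probe set 257338_s_at (SD, n = 2). The median fold of the 12 members was -0.11 in IA and 0.10 in IB, beside -0.081 and -0.031 over all tested probe sets. After 2.5 h, where the pair has no replicate, the median was -0.032, beside -0.015, and 6 of 12 members were above water. The effect at 2.5 h minus that at 1 h ran from -0.41 ± 0.29 (SE) for ccb382 to 0.56 ± 0.40 for nad1 probe set 257322_at. Here 0 of 12 members passed limma's interaction test, where 0% of all tested probe sets passed after adjustment and 2.48% lay at an unadjusted p under 0.05, against 0 members, and time cannot be told apart from experiment II.

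With the study's own size rule of 2-fold, and the brighter signal of the pair at or above the 40th percentile, 0 members were counted in IA, IB or II, where 5.31%, 2.67% and 1.44% of all such probe sets were. Without that filter the members past 2-fold were matR, lower with Tween 20 in IA (2.3 against 8.5 units) and in II (1.8 against 10.7 units), nad1 probe set 257327_at, lower in IB (1.7 against 8.4 units), and ccb203, higher in IB (5.5 against 2.4 units). Over all probe sets 13.3%, 13.4% and 10.5% passed 2-fold without the filter in IA, IB and II, and these 8 member signals were below the 40th percentile of their arrays.

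A larger difference lay between the repetitions at 1 h. Mitochondrial transcripts were lower in IB than in IA under both sprays for 11 of the 12 tested members, where this held for 41% of all tested probe sets, and ccb206 was the exception. For 5 of the 12 the difference was at least 2-fold on both the Tween and the water arrays, where 1.16% of all tested probe sets met this, and 0 were 2-fold higher in IB, beside 2.09%. The median difference, IB minus IA, was -0.83 on the Tween arrays and -0.94 on the water arrays, beside -0.026 and -0.068 over all tested probe sets. Over the 7 members bright on all 6 arrays it was -0.47 and -0.79, beside -0.019 and -0.065 for all such probe sets. Members that pass the filter on their IA signals alone must be lower in IB, as for nad4L. Probe set 257338_s_at of nad5 also passed only with its IA signals, since outside IA its water signal in II alone reached the percentile. Among the 7 members bright on all 6 arrays, 6 were lower in IB under both sprays and 3 were at least 2-fold lower, where 41% and 0.775% of such probe sets were. Over all 23 members, dim ones included, 18 were lower under both sprays and 6 at least 2-fold lower, the additional one being the untested nad1 probe set 257323_at (-1.23 and -2.16), where 38.3% and 3.03% of all probe sets were. With a pseudocount of 16 added to every signal, the count of tested members at least 2-fold lower was 3 of 12, where 0.613% of all tested probe sets met this. This comparison was made after the values were seen, and since each repetition is 1 harvest it carries no test.

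The 5 members at least 2-fold lower in IB were nad4, cox1, ccb452, nad9 and nad5. The nad4 signal was 7.10-fold lower in IB under Tween 20 (72.5 in IB against 514.9 units in IA) and 13.4-fold lower under water (49.1 against 658.0 units). The nad5 probe set was 4.96-fold lower under Tween 20 and 2.80-fold lower under water. The cox1 signal was 3.19-fold lower under Tween 20 (32.6 against 104.0 units) and 3.04-fold lower under water (29.3 against 89.0 units). For ccb452, a haem lyase component, Tween signals were 41.6 units in IB and 131.1 units in IA, and water signals 42.5 and 127.1 units, which is 3.15-fold and 2.99-fold lower. The nad9 signal was 2.11-fold lower in IB under both sprays. The signals of nad5 in IB were below the 40th percentile, as was the Tween signal of nad9, while nad4, cox1 and ccb452 were above it on all 6 arrays.

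The nad4L difference was -0.99 on the Tween arrays, so it missed 2-fold narrowly there, and -1.56 on the water arrays. That of nad9 was -1.08 under both sprays, so the 2 were of similar size on the Tween arrays only. The remaining tested members were closer between IB and IA. For ccb382 the difference was -0.24 on the Tween arrays and -0.60 on the water arrays, for orfX -0.47 and -0.79, and for ccb206 0.10 and -0.56. The 3 tested probe sets of nad1 lay between -0.66 and -0.20 on the Tween arrays and between -0.76 and -0.67 on the water arrays. The difference between IB and IA was thus of unequal size among the members. For 9 of 12 tested members IB lay below IA under each spray by more than any Tween to water difference of the 3 pairs. The same held for 16.3% of all tested probe sets. The 9 include nad4L and nad5, which passed the filter only with their IA signals. Among the 7 members bright on all 6 arrays it held for 5, where it held for 16.6% of such probe sets.

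**Figure D3:**
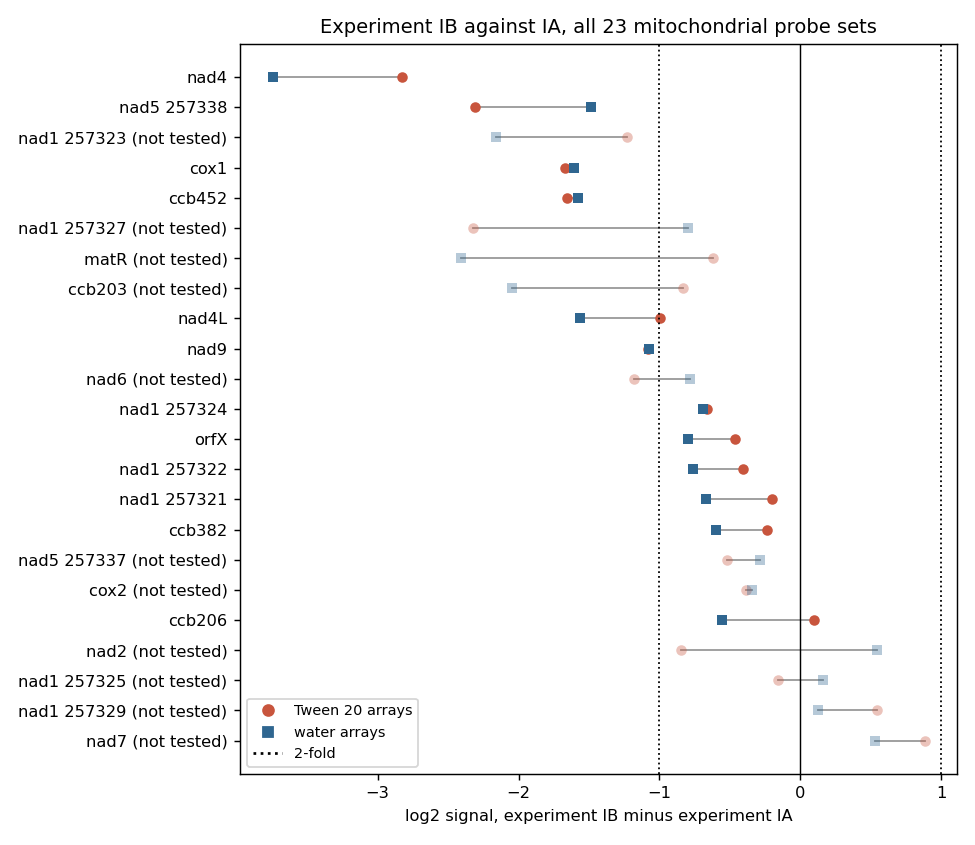
Log2 signal in experiment IB minus that in experiment IA for all 23 mitochondrial probe sets, with the Tween 20 arrays as circles and the water arrays as squares, and faint symbols for the 11 probe sets too dim to be tested. Most members lie left of 0 on both arrays, with nad4 furthest at -2.83 and -3.74, and the dotted lines mark a 2-fold difference.

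By the medians, experiment II was closer to IA than to IB, but this did not hold for every member. The median difference, II minus IA, was -0.18 on the Tween arrays and -0.32 on the water arrays, and 0 of 12 members were 2-fold lower or higher in II under both sprays, beside 0.885% and 0.857% of all tested probe sets. Against IB, 10 of 12 members were higher in II under both sprays, where 45.7% of all tested probe sets were, and 4 were at least 2-fold higher, where 1.94% of all tested probe sets were. Against IA, 6 of 12 members were lower in II under both sprays, where 30.7% of all tested probe sets were. The nad4 difference was -0.86 on the Tween arrays and -1.10 on the water arrays for II minus IA, and 1.96 and 2.64 for II minus IB. The ccb382 signal was nearer to IB, with -0.57 and -0.35 for II minus IA and -0.33 and 0.25 for II minus IB. The collection time differs between II and IB, and IA and IB share a stated time, as far as the titles give it.

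Along the mitochondrial genome, some neighbours differed in the size of this difference, and for others the comparison changed with the spray. In the RefSeq order of protein-coding genes, ccb452, nad4 and orfX follow each other. Their differences, IB minus IA, were -1.58, -3.74 and -0.79 on the water arrays and -1.66, -2.83 and -0.47 on the Tween arrays. The neighbours cox2 and ccb206 stood closer on the water arrays, at -0.34 and -0.56, with cox2 dim. On the Tween arrays they had opposite signs, at -0.38 and 0.10. Next to nad1 stood cox1, at -1.60 on the water arrays and -1.67 on the Tween arrays. The 3 tested probe sets of nad1 lay between -0.76 and -0.67 on the water arrays and between -0.66 and -0.20 on the Tween arrays. For nad5 the value on the water arrays depended on the probe set, at -1.49 for 257338_s_at and -0.29 for the untested 257337_at. Its dim neighbours nad7 and matR stood at 0.53 and -2.41 there. On the Tween arrays the 2 probe sets of nad5 stood at -2.31 and -0.52, nad7 at 0.88 and matR at -0.62. The neighbours nad2 and nad6 were both too dim to be tested and are not compared. The trans-spliced genes nad1, nad2 and nad5 have pieces at several places, so their order in that table is only partial.

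Most tested nuclear genes for the respiratory complexes did not show the lower level in IB. Of the 16 nuclear complex I genes in a list written for this work, 7 matched a probe set with 1 gene in the annotation. All 7 were higher in IB than in IA under both sprays, where 33.6% of all tested probe sets were higher. Their medians were 0.49 on the Tween arrays and 0.60 on the water arrays. AT5G11770, a core subunit of complex I that carries an iron-sulphur cluster, gave 1401.5 units with Tween 20 and 1602.4 units with water in IB, against 929.9 and 929.1 units in IA. In the other lists for the complexes, 3 of 3 tested complex II probe sets were higher in IB under both sprays. So were 5 of 10 for complex III and cytochrome c, 7 of 9 for complex IV and 4 of 5 for the ATP synthase. In the same order, 0, 3, 1 and 0 were lower. Among genes for alternative respiration and mitochondrial stress, 3 of 8 tested were lower and 0 higher. Their medians were -0.70 on the Tween arrays and 0.115 on the water arrays. For mitochondrial transcription, RNA processing and genome upkeep, 2 of 5 were lower and 1 higher, with medians of -0.35 and -0.47. Of all tested probe sets 41% were lower. These counts are a description, and the difference between the mitochondrial and the nuclear genes was not tested.

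**Figure D4:**
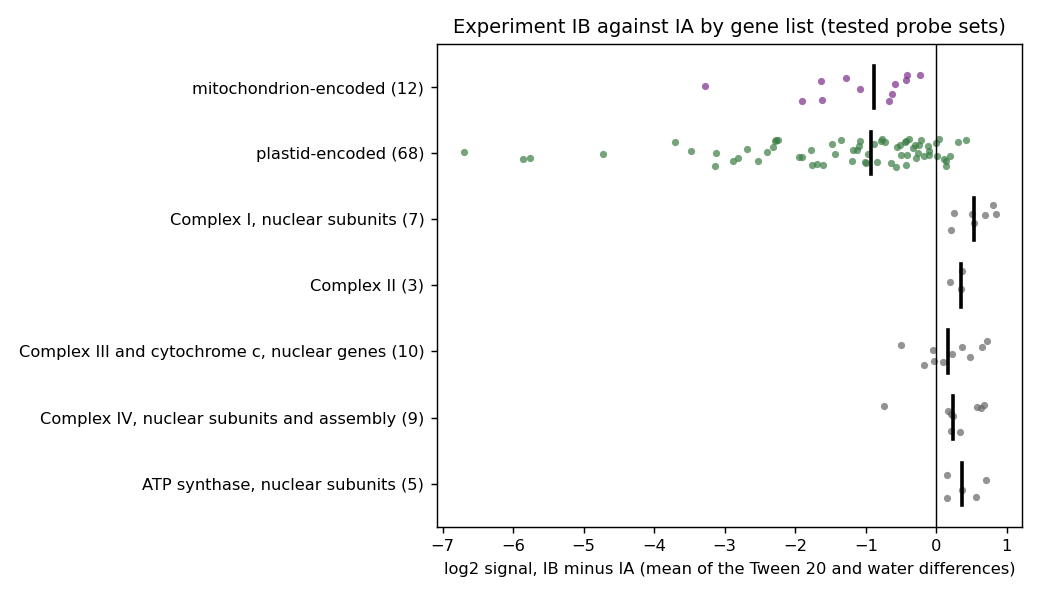
Log2 signal in experiment IB minus that in experiment IA, as the mean of the Tween 20 and water differences, for tested probe sets grouped by list (points) with the median of each list (bar) and the number of probe sets in brackets. The medians are -0.88 for mitochondrion-encoded, -0.93 for plastid-encoded and 0.54 for nuclear complex I genes. Not drawn are the nuclear lists for alternative respiration and stress and for mitochondrial transcription, RNA processing and genome upkeep.

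Plastid transcripts, the other products of an organelle genome in these cells, were lower in IB as well. Of 68 tested plastid probe sets, 56 were lower in IB than in IA under both sprays and 25 at least 2-fold lower. The shares over all tested probe sets were 41% and 1.16%. The plastid medians were -0.61 on the Tween arrays and -1.15 on the water arrays. Control probe sets also differed between IB and the rest. For actin, the log2 difference between its 3′ and 5′ probe sets was 2.76 on the Tween array and 2.94 on the water array of IB, and 4.26 and 4.13 in IA and 4.022 and 4.003 in II. The same difference for GAPDH was 0.20 and -0.06 in IB, and 0.38 and 0.52 in IA and 0.38 and 0.54 in II. For ubiquitin IB lay with IA, at 0.91 and 1.00 in IB and 1.12 and 0.92 in IA, and II stood apart at 1.81 and 1.71. The leaf markers RCA and SBPASE differed by -0.04 to 0.21 between IB and IA, and the guard cell gene FMA differed by -1.06 on the Tween arrays and -0.93 on the water arrays (IB minus IA, log2). The part of these differences in the mitochondrial result was not tested.

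Nuclear genes that serve mitochondria were examined beside the members for the response to Tween 20. Over the 3 experiments 0 probe sets of the lists for complexes I, II, III and IV and the ATP synthase passed limma's paired test after adjustment. Of all tested probe sets 1.12% passed. The list medians ran from -0.047 for complex I to 0.071 for complex II. For complex I, the 3 genes with the largest t were AT2G20360, AT5G11770 and AT4G02580, with estimates of -0.18, -0.09 and -0.06. The complex II genes SDH1-1, SDH2-2 and SDH2-1 had estimates of -0.14, 0.16 and 0.07. For complex IV, AT2G47380, AT5G57815 and AT1G02410 had -0.14, -0.19 and 0.18, and for the ATP synthase AT5G47030, AT4G26210 and AT4G29480 had -0.14, 0.09 and 0.04. In the list of complex III and cytochrome c, AT3G27240 and AT5G40810 had -0.17 and -0.10. The largest estimate in those lists was that of AT5G25450, a QCR7-type subunit of complex III, whose signals were 610.8, 307.4 and 94.8 units with Tween 20 in IA, IB and II, against 238.1, 238.4 and 55.3 units with water. It was above water in every pair, by 1.36, 0.37 and 0.78, and the estimate of 0.83 ± 0.19 (SE) did not pass (limma adjusted p = 0.101). In the list of alternative respiration and mitochondrial stress, 8 of 26 genes were tested and 0 passed. The median was 0.27 and 6 of 8 were above 0, beside -0.042 and 41.1% over all tested probe sets. This list was chosen with earlier results of these data known. There AT2G41730 gave 241.4, 109.8 and 110.5 units with Tween 20, against 37.4, 70.3 and 55.7 units with water. It was above water in each pair, and its estimate of 1.44 ± 0.36 (SE) did not pass (limma adjusted p = 0.127). NDB2, an alternative NAD(P)H dehydrogenase of the inner membrane, gave 373.9, 163.5 and 166.4 units with Tween 20, against 183.1, 131.5 and 121.5 units with water. It too was above water in each pair without passing (0.60 ± 0.16, SE, limma adjusted p = 0.146). AT5G51440, a small heat shock protein of mitochondria, gave 990.1, 439.1 and 131.1 units with Tween 20, against 439, 402.7 and 75.3 units with water (0.70 ± 0.19, SE, limma adjusted p = 0.155). In all 3 genes the fold was smallest in IB. Of the genes for mitochondrial transcription, RNA processing and genome upkeep, 5 of 39 were tested and 0 passed. The lowest estimate there was -0.38 ± 0.22 (SE), for AT5G15700, the RNA polymerase RPOTmp, with folds of -0.43, -0.87 and 0.18. AT5G46920 and AT5G14580 followed with estimates of 0.13 and -0.18.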

How the data were processed

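The authors deposited linear signal intensities, 1 for each probe set of 6 Affymetrix arrays; the submitters' processing notes name MAS5, without its settings. The mean between the 2nd and 98th percentiles was 100.008 or 100.009 on every array, so a change common to most transcripts would be scaled away. From these, log2 values were taken after a floor of 0.1 units (Python 3.11.15, R 4.3.3). The 64 control probe sets were left out, and 14345 probe sets were tested with limma 3.58.1 (variance trend, experiment as a block) and Benjamini-Hochberg adjustment over all of them at 0.05. The block rests on the sample titles: same-experiment arrays deviated together (r = 0.576, 0.714 and 0.711). Deviations were taken from the mean of the 3 arrays of each treatment. The negative values of all other pairs follow in part from that centring and add no separate evidence. No arrays were identical (0 pairs). In the platform annotation used for names, 1 gene was listed for 13513 probe sets, several for 503 and none for 8730. The members and gene lists were chosen with earlier results of these data known. Values in full were due to called members, those with the largest fold of 1 direction in 3 pairs, the largest t per role and the widest ranges, and nuclear genes were named as the 3 largest t of each list; the comparison of IB with IA was added after seeing the data. The number of arrays limits the precision. The script for the fit was tested on simulated data.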

Additional observations from a re-analysis of the deposited data

How the results depend on the processing

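Over 11 alternatives for the 3 experiments, 0 members were called, and the smallest limma adjusted p of a member was 0.363, without IB. With no filter 1 of 23 members, the dim matR, had an unadjusted limma p under 0.05 (0.0479). The same held for 2567 of all 22746 probe sets. Without the replicate block 0 members were called as well, and the paired test's 161 calls over all probe sets (146 higher, 15 lower) became 0. That total was also 0 without a filter, without IA or without II, 1 higher and 1 lower without the variance trend, 87 and 5 with median centring, and 574 and 156 without IB. At 1 h, 93 higher and 12 lower were called after quantile normalization, against 0. With a 60th percentile filter, which left 4 members, their median fold was 0.012 for IA, 0.25 for IB and -0.18 for II, and with no filter it was -0.031 for IB. With no filter on the brighter signal, 2-fold counts were 1 lower in IA, 1 higher and 1 lower in IB and 1 lower in II, against 0. The count of members 2-fold lower in IB than in IA was 3 of 12 with a pseudocount of 16, against 5 of 12. It was 3 of 4 with the 60th percentile filter and 3 of 7 for probe sets bright on all 6 arrays. The shares over all such probe sets were 0.613%, 1.08% and 0.775%, against 1.16%. Of 88 estimates for named members 5 turned their sign: nad4 was -0.0032 with the pseudocount and ran from -0.23 to 0.22 when 1 experiment was left out, nad1 probe set 257322_at from -0.22 to 0.15 and nad4L from -0.069 to 0.28 (-0.0026 without IB). Leaving out 1 experiment moved the median estimate between -0.078 and 0.074 and that of nad5 between -0.59 and -0.18, and the limit of 2-fold on the intervals was lost for nad5 without IA or II and for nad4L without IA. Without the block it was lost for nad4L, nad4, ccb452, cox1 and nad5, with nad4 spanning -2.30 to 2.36. The causes were not tested. Choosing members by RefSeq location gave no value, because 0 gene identifiers matched, and leaving out an experiment at 1 h leaves no residual degrees of freedom. Dim signals limit 11 of the 23 members.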
